A study of Homo sapiens with 18 samples.

Results

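The untreated tumors were the 5 subcutaneous MSTO-211H xenografts labelled 0 h, out of 18 tumors in the series, and they were chosen by that label alone, with the compound given as glucose and the cage group as 1. MSTO-211H is an established human cell line of malignant pleural mesothelioma. The line grafted here, MSTO-211H [sh-YAP1], carried a doxycycline-dependent short hairpin RNA against YAP1, introduced with a piggyBac transposon vector and selected with puromycin. Its hosts were SCID mice, which lack mature T and B cells. The cells were inoculated under the skin in Matrigel, the mice drank water with 5% glucose, and the tumors were taken at about 300 mm3, before any doxycycline. The 5 tumors came from animals 13, 20, 26, 5 and 8, and wherever 5 values follow each other below they stand in that order. All carried the uninduced hairpin, and no tumor of the parental line is among the samples. Each animal gave 1 tumor and all 5 shared 1 cage group, so a spread between tumors here is a spread between animals of 1 cage group grafted with 1 line, and no comparison between groups was made.

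Mesothelioma arises from the mesothelium, the flat cell layer that lines the pleura, and a biphasic tumor holds both epithelioid and spindle-shaped cells. In the Hippo pathway, the kinases STK3 and STK4 with SAV1 activate LATS1 and LATS2, which phosphorylate the coactivators YAP1 and TAZ and so keep them out of the nucleus. Unphosphorylated YAP1 and TAZ bind TEAD factors at enhancers and promoters, and genes such as CYR61, CTGF and ANKRD1 are the usual readouts of that binding. NF2, BAP1, LATS2 and the CDKN2A region are the loci most often lost in mesothelioma.

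Each tumor was described by FPKM, the number of RNA fragments on a gene per unit of its length, relative to all fragments mapped in the tumor. The unit is not named for these tumors in the sources used here and was inferred. FPKM is corrected for length, so that levels of different genes can be set side by side, but it carries no count and the depth behind a value is unknown, so no counting interval was given for any level. The table listed 20257 genes. Of these, 9302 were at or above 1 FPKM in all 5 tumors, which is 45.9% of the genes, and 4494 were listed at 0 in all 5, which is 22.2%. Counts of listed genes below are to be read beside these shares. Only 264 genes reached 100 FPKM in every tumor. The 10 pairs of tumors had a Pearson r of 0.976 to 0.980 for log2(FPKM + 1) across genes, a description over genes that are not independent of each other. No pair of tumors had identical values.

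The mitochondrially encoded messages led the profile. The 13 proteins encoded by mitochondrial DNA are core subunits of the respiratory chain complexes and of ATP synthase, and together their messages took 81.5 ± 1.60% of all FPKM in the tumors. The highest share, 83.8%, was in the tumor of animal 5 and the lowest, 80.0%, in that of animal 20. MT-ATP8, a small subunit of ATP synthase, stood at 547806, 548052, 566356, 659498 and 630191 FPKM, and alone made up 52.3 ± 1.71% (SD, n = 5) of the sum. MT-ND4L, a membrane subunit of complex I, came second at 86812, 75377, 80878, 92824 and 82768 FPKM. From MT-ND4 downward the levels ran from 35327 ± 2344 FPKM to 5193 ± 374 FPKM for MT-ND6. MT-ND6 is the only 1 of the 13 that is read from the other strand of the mitochondrial genome. The tumor of animal 5 had the highest value for 9 of the 13 genes.

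Both leading messages are also the shortest of the 13, and both overlap the gene behind them, which is why their sequences are shown. MT-ATP8 lies at chrM:8366-8572 of GRCh38 on the plus strand and is 207 nt long, and MT-ND4L lies at chrM:10470-10766 and is 297 nt long. Capitals mark the 46 nt that MT-ATP8 shares with MT-ATP6, which is 681 nt long, and the 7 nt that MT-ND4L shares with MT-ND4, which is 1378 nt long.
MT-ATP8: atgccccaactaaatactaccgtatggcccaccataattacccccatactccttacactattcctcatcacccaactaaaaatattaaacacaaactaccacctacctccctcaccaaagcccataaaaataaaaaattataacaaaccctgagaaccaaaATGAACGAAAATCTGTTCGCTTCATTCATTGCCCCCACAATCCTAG
MT-ND4L: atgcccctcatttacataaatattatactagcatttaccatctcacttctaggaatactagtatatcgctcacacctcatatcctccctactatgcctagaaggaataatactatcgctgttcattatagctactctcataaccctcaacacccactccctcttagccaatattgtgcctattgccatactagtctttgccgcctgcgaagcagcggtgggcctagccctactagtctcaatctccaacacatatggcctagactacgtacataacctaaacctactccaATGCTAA
MT-ATP6, whose start codon opens the capitals of the first sequence, stood at 30823 ± 2135 FPKM although the same transcript carries both reading frames. When each FPKM value was weighted by the length of the gene's longest GENCODE transcript, as an approximate share of fragments, the mitochondrially encoded genes held 34.1 ± 2.33% and MT-ATP8 10.5 ± 0.936%. The share of MT-ATP8 was thus far larger per length than per fragment. Whether fragments shared between overlapping reading frames contributed to the level of MT-ATP8 was not tested.

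Among the 20244 nuclear genes, those outside the mitochondrial genome, the median level was 1.20 FPKM and the steep end of the profile was short. The 100 highest nuclear genes took 30.0 ± 0.350% of the nuclear FPKM sum and the 1000 highest took 63.9 ± 0.350% (SD, n = 5). Ranks given below are ranks of the mean FPKM among nuclear genes.

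**Figure D1:**
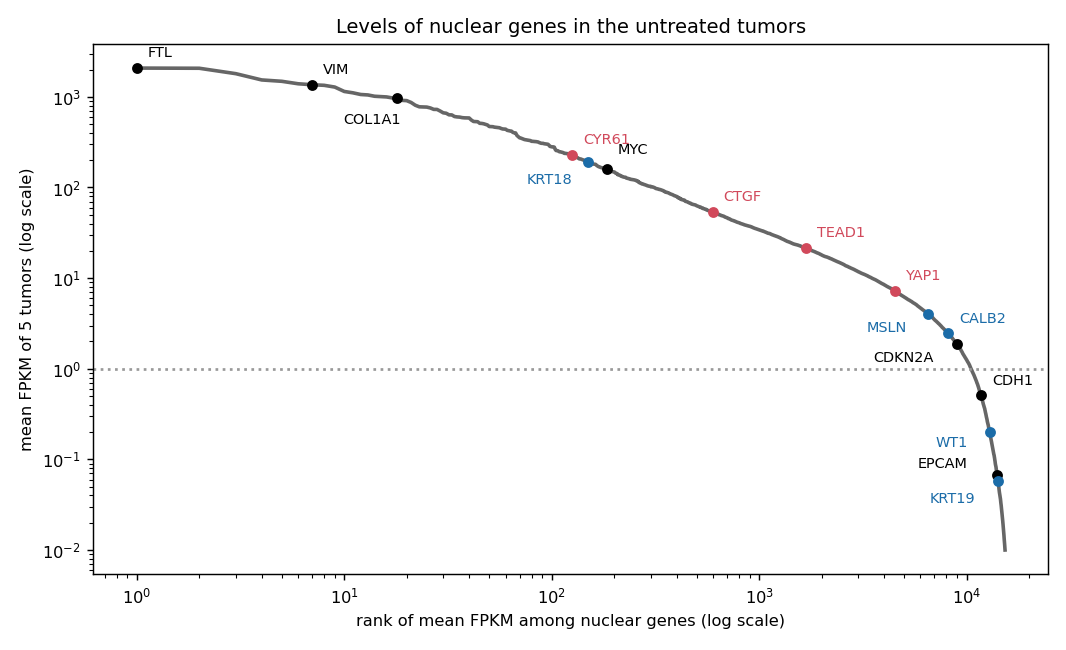
Mean FPKM of the 5 untreated tumors against rank among nuclear genes, both axes on log scales, for genes with a mean of 0.01 FPKM or more, with a dotted line at 1 FPKM. Red points are genes of the YAP1-TEAD axis, blue points are mesothelial markers and black points are other genes named in the text. FTL leads at 2075 FPKM, CYR61 stands at rank 126 and YAP1 at rank 4513, and the mesothelial markers reach from KRT18 at rank 149 to KRT19 at rank 14177.

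FTL, the light chain of the iron store ferritin, was the highest nuclear gene at 2025, 2192, 2106, 2095 and 1958 FPKM. RPL37A, a protein of the large ribosomal subunit, followed at 2206, 1986, 1986, 1960.3 and 2189.5 FPKM. These values overlapped, so the order of the first and second gene was within the spread between tumors. Ribosomal proteins filled 12 of the 25 highest places. PTP4A1, a small phosphatase anchored in membranes by prenylation, was next by its mean, but its values of 1389, 1632, 1378, 2636 and 1968 FPKM left the tumor of animal 5 well above the rest. NPM1, the nucleolar chaperone nucleophosmin, had 1591, 1428, 1513, 1532 and 1612 FPKM. NMT1, which attaches myristate to proteins, had 1398, 1352, 1349.6, 1493 and 1369 FPKM. VIM, the intermediate filament vimentin of mesenchymal cells, reached rank 7 at 1227, 1499.6, 1384, 1376 and 1309 FPKM. RACK1, a scaffold on the small ribosomal subunit, had a mean of 1281 ± 58.9 FPKM. PTGDS, prostaglandin D2 synthase, was, with PTP4A1, the most uneven of the 10 highest, with 1298, 1499, 1269, 918 and 745 FPKM. Its 3 higher values came from animals 13, 20 and 26. CAV1, the coat protein of caveolae, had 1046, 1001, 1037, 864 and 1035 FPKM, lowest in the tumor of animal 5. COL1A1, a chain of type I collagen, had 933, 1210.1, 1033, 763 and 863 FPKM. SPARC, a collagen-binding matrix protein, had 744, 1182, 942, 779 and 890.2 FPKM. Both matrix genes were highest in the tumor of animal 20. GAPDH and ACTB, common reference genes, had means of 1006 ± 63.9 and 776 ± 62.6 FPKM. The remaining members of the 25 were 11 ribosomal proteins besides RPL37A and ATP5J2, a subunit of ATP synthase at 773 ± 23.1 FPKM.

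**Figure D2:**
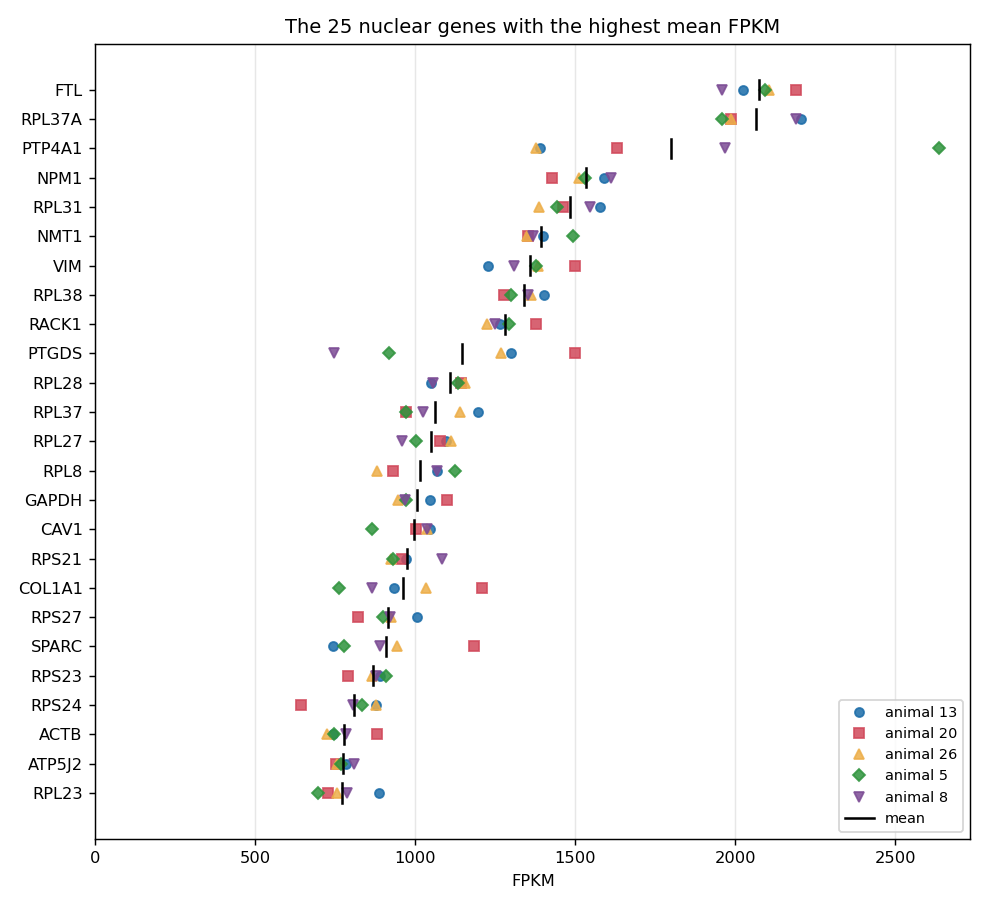
FPKM of the 25 nuclear genes with the highest mean in each of the 5 untreated tumors, where each symbol is 1 tumor and the black bar the mean. Most rows are tight, while PTP4A1 runs from 1378 to 2636 FPKM and PTGDS from 745 to 1499 FPKM.

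Across the whole set of cytosolic ribosomal proteins, 81 of 84 genes (96.4%) were at or above 1 FPKM in all 5 tumors, beside 45.9% of all genes. The set took 16.3 ± 0.511% (SD, n = 5) of the nuclear FPKM sum. The median level of its members was 303 FPKM. The low members were chiefly paralogs with restricted use. RPL3L, the muscle form of RPL3, was above 0 only in the tumor of animal 13, at 0.317 FPKM. RPL39L, a germ-line form of RPL39, was above 0 only in that of animal 26, at 0.318 FPKM. RPL39 itself was low for a ribosomal protein and uneven, at 0.503, 2.91, 3.68, 1.20 and 0.301 FPKM. Reads of ribosomal protein genes can be shared with their many processed pseudogenes, so single levels are uncertain. Mitochondrial ribosomal proteins, which are nuclear genes, were all detected: 78 of 78 were at or above 1 FPKM in every tumor, beside the same 45.9%. They were led by MRPL33 at 152 ± 19.0 FPKM. Of the elongation factors, EEF2 had 553, 425, 555, 559 and 562 FPKM and EEF1A1 275, 241, 265, 238 and 261 FPKM, and EEF2 was lowest in the tumor of animal 20. All 14 proteasome core subunits were at or above 1 FPKM in every tumor, beside the same 45.9%.

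The coactivators and factors of the Hippo output were expressed at middle levels. Of 10 genes in the list, 8 were at or above 1 FPKM in all 5 tumors, 80.0% beside 45.9% of all genes. YAP1 (chr11:102110461-102233423, GRCh38), the target of the uninduced hairpin, had 7.71, 10.2, 6.68, 4.82 and 6.89 FPKM, with rank 4513. Animal 20 gave the highest and animal 5 the lowest value, and the other 3 tumors lay between 6.68 and 7.71 FPKM. WWTR1, which encodes TAZ, was higher at 18.1, 24.9, 15.8, 20.0 and 11.3 FPKM. The tumor of animal 5 was lowest for YAP1 but not for WWTR1, where that of animal 8 was. WWTR1 exceeded YAP1 within each of the 5 tumors. Among the TEAD factors, the DNA-binding partners of YAP1, TEAD1 was highest at 21.4, 23.1, 20.0, 19.7 and 23.3 FPKM. TEAD4 had 4.92, 3.37, 3.53, 4.35 and 3.83 FPKM. TEAD3 had 2.63, 3.19, 3.08, 2.38 and 2.37 FPKM. TEAD2 had 1.88, 2.03, 1.18, 5.27 and 1.52 FPKM, and its highest value, in the tumor of animal 5, lay above every TEAD4 value. TEAD1 thus stood apart from the other 3 in every tumor, and every TEAD4 value lay above every TEAD3 value. Outside the tumor of animal 5, TEAD2 lay below every TEAD3 value. VGLL proteins compete with YAP1 for TEAD or modulate its use. VGLL3 had a mean of 10.7 ± 2.87 FPKM and VGLL4 of 7.07 ± 1.54 FPKM. VGLL1 was listed at 0 in all 5 tumors, and VGLL2 was above 0 only in the tumor of animal 13.

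Upstream of YAP1, 19 of 20 Hippo kinases and regulators were at or above 1 FPKM in every tumor, 95.0% beside 45.9% of all genes. FRMD6, a FERM-domain protein that recruits the pathway to the membrane, led at 118, 129.5, 121, 109 and 133 FPKM. MOB1A, the coactivator of the LATS kinases, had 33.7, 43.9, 37.0, 41.7 and 42.99 FPKM. AMOTL2, a junction protein that binds YAP1, had 31.8, 32.7, 31.3, 25.4 and 27.9 FPKM, and the phosphatase PTPN14 30.6, 36.0, 28.98, 26.2 and 27.1 FPKM, both lowest in animal 5. STK4 had 20.2, 26.1, 29.5, 23.5 and 26.9 FPKM and its paralog STK3 4.98, 5.38, 10.9, 4.90 and 2.49 FPKM. STK4 was above STK3 in each tumor. The scaffold SAV1 had a mean of 4.04 ± 0.746 FPKM. LATS1 had 4.61, 6.55, 4.75, 4.97 and 6.51 FPKM and LATS2 3.97, 4.69, 3.55, 4.02 and 3.70 FPKM. LATS1 was above LATS2 in each tumor, although across tumors the highest LATS2 value lay above the lowest LATS1 value. NF2, the membrane scaffold merlin, had 6.48, 6.92, 7.77, 6.48 and 8.33 FPKM. DCHS1, a large protocadherin at the top of the pathway, was the only member under 1 FPKM in all 5, at 0.626 ± 0.111 FPKM.

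Target genes of YAP1 and TEAD were nearly all expressed: 22 of 23 were at or above 1 FPKM in every tumor, beside 45.9% of all genes, and the median of their means was 23.1 FPKM beside 1.20 FPKM over nuclear genes. These genes were listed because they are expected in cells with active YAP1, so the count describes the list and says nothing of the source of its level. CYR61, a secreted matricellular protein, stood at rank 126 with 253, 237, 231, 206 and 211 FPKM. IGFBP3, a carrier of insulin-like growth factors, had 114, 215, 109, 85.6 and 144 FPKM. CRIM1, a membrane protein that binds BMPs, had 97.3, 103, 108, 70.1 and 89.0 FPKM. CTGF, the relative of CYR61 also named CCN2, had 55.1, 64.9, 50.8, 47.4 and 49.3 FPKM. AXL, a receptor tyrosine kinase, had 50.1, 51.8, 53.2, 44.1 and 45.7 FPKM. ANKRD1, a stress-responsive ankyrin repeat protein, had 13.8, 10.3, 13.5, 10.5 and 9.95 FPKM. The CV was 8.50% for CYR61, 8.03% for AXL and 13.1% for CTGF, against 37.6% for IGFBP3 and 41.5% for F3, the tissue factor of coagulation. F3 had 40.9, 39.6, 18.9, 15.0 and 40.1 FPKM, with animals 26 and 5 well under the other 3. TGFB2, a secreted TGF-beta, was the exception at 0.0986, 0.303, 0.462, 0.966 and 0.251 FPKM. Summed over the 23 targets, the level was 918, 1034, 867, 736 and 865 FPKM, highest in animal 20 and lowest in animal 5, which were also the highest and lowest for YAP1. With 5 tumors no correlation was computed. When each tumor was scaled to 1000000 over nuclear genes, the sums became 4306, 4859.7, 4153, 3744 and 4231, with the same tumors at either end. Before scaling, animal 20 was also highest and animal 5 lowest for the sums of housekeeping, proteasome and glycolytic genes. Of 5775 nuclear genes with a mean of 5 FPKM or more, 1645 were highest in animal 20 and 1881 were lowest in animal 5. After scaling, the housekeeping sum still had animal 20 highest and animal 5 lowest, at 19937 and 19363, a narrower range than the targets had. The hypoxia response sum also kept both ends, at 679 and 472. The proteasome sum was then highest in animal 8 and the glycolytic sum lowest in animal 26. After scaling, these positions were thus shared with some other lists but not with all.

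**Figure D3:**
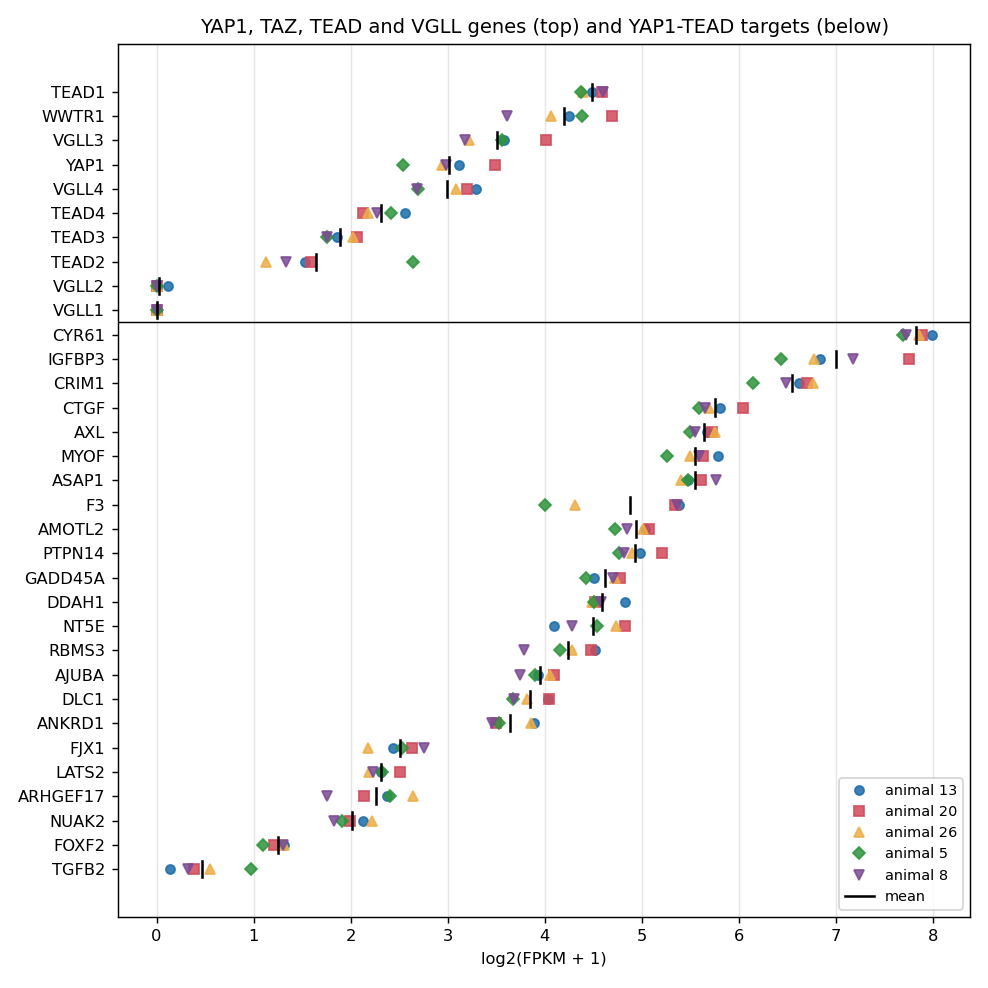
log2(FPKM + 1) in each of the 5 untreated tumors for 10 coactivator and TEAD genes (above the line) and 23 YAP1-TEAD target genes (below it), in order of mean, where symbols are tumors and black bars are means of the plotted values. TEAD1 lies to the right of TEAD4, TEAD3 and TEAD2 in every tumor, CYR61 is the highest target, and TGFB2 is the only target under 1 FPKM in all 5 tumors.

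The mesothelial label was checked against 21 marker genes, of which 20 are in the table and PRG4 is not analysed here. Of the 20, 6 were at or above 1 FPKM in all 5 tumors, 30.0% beside 45.9% of all genes. Listed at 0 in all 5 were 4 of the 20, near the share of 22.2% over all genes. The median of the list was 0.489 FPKM, below that of nuclear genes. The keratin pair KRT18 and KRT8 of simple epithelia was high, with 192, 202, 191, 186 and 183 FPKM for KRT18 and 185, 214, 185, 152 and 183 FPKM for KRT8. KRT7, another keratin of simple epithelia, was far lower at 4.23, 5.90, 5.13, 3.37 and 4.20 FPKM. MSLN, which encodes the surface protein mesothelin, had 4.13, 5.16, 4.47, 2.43 and 4.10 FPKM. CALB2, which encodes calretinin, had 0.964, 3.02, 1.17, 3.23 and 3.89 FPKM, with both values near 1 in animals 13 and 26. BNC1, a zinc finger protein of mesothelial and basal cells, was even between tumors at 4.42, 4.16, 3.85, 4.40 and 4.51 FPKM. WT1, the transcription factor used with calretinin to diagnose mesothelioma, was under 1 FPKM throughout, at 0.156, 0.118, 0.221, 0.304 and 0.192 FPKM. KRT19 was above 0 in the tumors of animals 26 and 8 only. PDPN, UPK1B, GATA5 and TCF21 were listed at 0 in all 5 tumors. The defining markers were therefore divided. Keratins 8 and 18 ranked among the 200 highest nuclear genes. Mesothelin and calretinin had means of 4.06 and 2.45 FPKM, above the median of 1.20 FPKM over nuclear genes. WT1, podoplanin and uroplakin 1B were near or at 0. The label mesothelioma is used here for the cell line, not as a reading of these levels.

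Mesenchymal genes were expressed throughout, and most epithelial junction genes were not. All 14 mesenchymal markers were at or above 1 FPKM in every tumor, beside 45.9% of all genes, with a median of 26.8 FPKM. Besides VIM and SPARC, CD44, the hyaluronan receptor, had 254, 228, 232, 239.8 and 236 FPKM. FN1, fibronectin, had 79.7, 117, 115, 139 and 89.4 FPKM. ZEB2 and ZEB1, repressors of E-cadherin, had means of 24.5 ± 3.69 and 12.1 ± 1.21 FPKM, and SNAI2 of 18.9 ± 3.29 FPKM. CDH2, N-cadherin, had 8.74, 11.6, 13.0, 10.1 and 10.3 FPKM. By contrast, 17 of 20 epithelial markers were under 1 FPKM in all 5 tumors. The share at or above 1 FPKM in all 5 was 10.0%, beside 45.9% of all genes. CDH1, E-cadherin, had 0.750, 0.248, 1.25, 0.154 and 0.148 FPKM, above 1 only in the tumor of animal 26. EPCAM was above 0 only in that of animal 5, at 0.336 FPKM. CLDN1, a tight junction claudin, was an exception at 13.4, 17.8, 17.3, 17.7 and 16.4 FPKM. MUC1, a membrane mucin, was the other, at 15.4, 9.99, 45.4, 8.63 and 18.8 FPKM. The tumor of animal 26 was highest for both MUC1 and CDH1.

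Matrix genes of fibroblasts were likewise all present: 16 of 16 were at or above 1 FPKM in every tumor, beside 45.9% of all genes. Their median was 43.6 FPKM. COL6A1 and COL6A2, chains of the microfibrillar type VI collagen, had means of 363 ± 31.5 and 304 ± 26.2 FPKM. COL1A2 had 188, 293, 254, 265 and 173 FPKM. COL3A1, the fibrillar collagen of soft tissue, had a mean of 166 ± 20.5 FPKM. DCN, the proteoglycan decorin, had 86.0, 127, 57.9, 119 and 70.6 FPKM. COL8A1, a short-chain collagen outside that list, was the second of all 44 collagen chains at 441, 387, 462, 376 and 424 FPKM. Of these 44, 21 were at or above 1 FPKM in all tumors (47.7% beside 45.9% of all genes) and 6 were at 0 in all (13.6% beside 22.2%), so the family as a whole stood near all genes in the first share. The summed level of the 16 matrix genes was 2342, 2826, 2477, 2233 and 2152 FPKM, with animal 20 highest. A xenograft is a mixture of human tumor cells and mouse host cells, and in bulk RNA fewer cells of a type and less RNA per cell cannot be told apart. How mouse reads were handled is not given in the sources used here, and the part of mouse fibroblast RNA in the collagen values was not tested.

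Markers of other host cells were present unevenly. Of 20 leukocyte markers, 7 were at or above 1 FPKM in every tumor, 35.0% beside 45.9% of all genes. As many, 7, were listed at 0 in all, where the share over all genes was 22.2%. LYZ, the lysozyme of myeloid cells, had 29.6, 20.2, 40.3, 43.7 and 19.0 FPKM. CD68, a lysosomal protein of macrophages, had 20.9, 24.5, 18.5, 18.6 and 17.3 FPKM. SPI1, the transcription factor PU.1, had 8.49, 9.50, 9.99, 13.0 and 6.57 FPKM, and CSF1R, the receptor of macrophage growth factor, 8.91, 6.73, 8.75, 7.55 and 5.73 FPKM. CD14 and CD163, also macrophage markers, had means of 0.191 and 0.135 FPKM. The T-cell genes CD3D, CD3E and CD2, the B-cell gene MS4A1, NKG7 of natural killer cells and FCGR3A were among the 7 at 0. The summed leukocyte level was 81.6, 71.7, 92.9, 95.0 and 58.2 FPKM. For endothelium, ENG had 18.0, 19.3, 18.8, 20.4 and 16.5 FPKM and CDH5, VE-cadherin, 1.88, 2.40, 2.33, 3.03 and 2.05 FPKM, whereas PECAM1 and VWF had means of 0.0940 and 0.120 FPKM. The endothelial sum was 38.9, 48.5, 49.0, 42.9 and 39.7 FPKM. ACTA2, smooth muscle actin, had 18.6, 13.3, 11.9, 18.0 and 16.0 FPKM, while MYH11 of mature smooth muscle had a mean of 0.0290 FPKM. FABP4, a fatty acid carrier of adipocytes, macrophages and capillaries, had 10.3, 2.85, 16.3, 11.5 and 8.16 FPKM and ADIPOQ of adipocytes a mean of 0.0836 FPKM. Lists of skin, liver and blood, and neural genes had medians of 0.0435, 0.0318 and 0.0897 FPKM. KRT17, a keratin of basal and injured skin, stood out in the first with 42.6, 42.3, 27.7, 12.9 and 15.3 FPKM, and NCAM1 in the last with 19.2, 19.6, 15.6, 10.1 and 18.4 FPKM. Genes of 1 lineage thus ranged from 0 to over 10 FPKM, and no share of host cells was estimated.

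**Figure D4:**
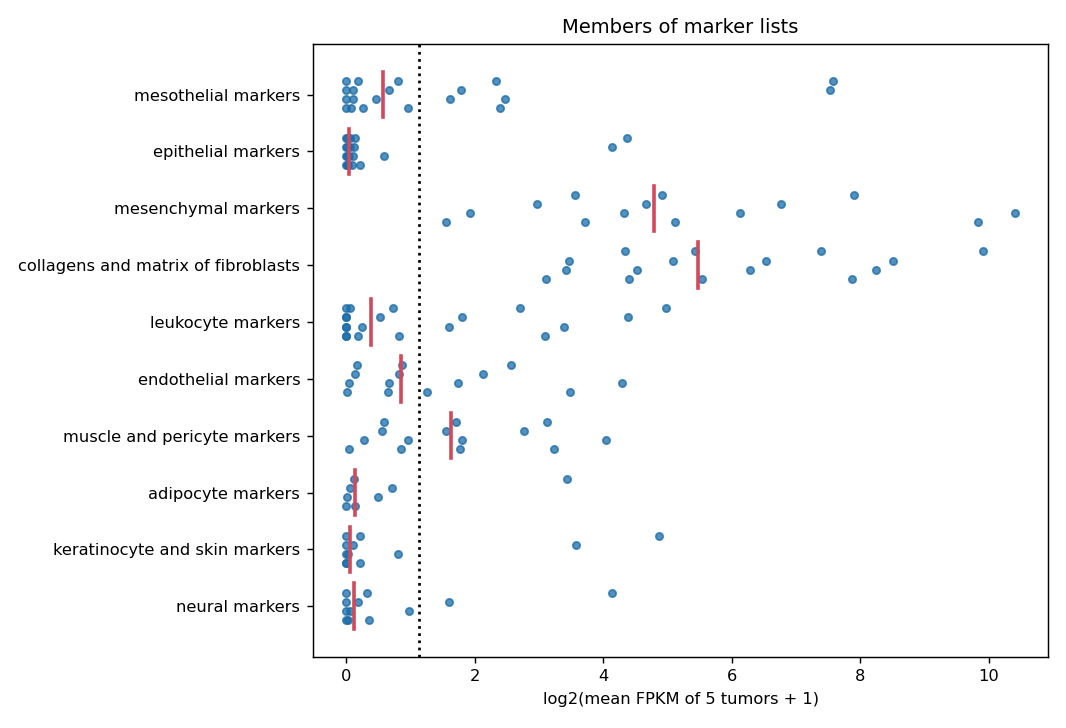
log2(mean FPKM of 5 tumors + 1) of each member of 10 marker lists, where each point is a gene, the red bar is the list's median and the dotted line the median of all nuclear genes (1.20 FPKM). The mesenchymal and fibroblast matrix lists lie to the right of the line with every member, while the epithelial list lies to its left except for MUC1 and CLDN1.

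Among genes of regions often lost in mesothelioma, 11 of 13 were at or above 1 FPKM in all tumors (84.6% beside 45.9% of all genes). BAP1, a histone deubiquitinase, had 4.31, 8.24, 7.07, 5.80 and 6.13 FPKM and RB1 5.80, 6.42, 4.09, 3.98 and 5.52 FPKM. In the 9p21 region the levels changed from gene to gene. MTAP (chr9:21802543-21937651, GRCh38), an enzyme of methionine salvage, had 18.6, 11.3, 15.8, 11.2 and 18.8 FPKM. CDKN2A (chr9:21967753-21995301), which encodes the cell cycle inhibitor p16, had 1.51, 2.35, 2.20, 1.76 and 1.55 FPKM. CDKN2B (chr9:22002903-22009363), which encodes p15, was at 0 in 3 tumors and at 0.142 FPKM in both others. DMRTA1 (chr9:22446841-22455740) was listed at 0 in all 5, as was IZUMO3 further along, and ELAVL2, between them, was above 0 in 1 tumor. On the other side of MTAP, the nearest interferon gene in the table, IFNE, had 0.185, 0.170, 0, 0.192 and 0.180 FPKM, and IFNA1 and IFNA8 beyond it were at 0. Many of these neighbours are restricted to other tissues, so an absent message is no reading of copy number, and DNA was not measured in these samples. Around LATS2 (chr13:20973032-21061547, GRCh38) the next genes on either side were expressed, with means of 7.57 FPKM for XPO4, an exporter of the nucleus, and 13.7 FPKM for SAP18, a subunit of splicing and repressor complexes. The study's paper describes MSTO-211H as a line with a Hippo deletion. A present message is likewise no reading of copy number, and the part of mouse RNA in these values was not tested.

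Receptors and ligands for growth signals were expressed unevenly. Of 58 receptor tyrosine kinases, 20 were at or above 1 FPKM in every tumor, 34.5% beside 45.9% of all genes. Listed at 0 in all were 6 of the 58, among them ALK, a lower share than the 22.2% of all genes. After AXL, FGFR1, a receptor for fibroblast growth factors, had 57.5, 41.5, 50.8, 31.7 and 43.9 FPKM. EGFR had 37.3, 44.2, 36.7, 33.1 and 40.3 FPKM. PDGFRB had a mean of 33.1 ± 9.92 FPKM and MET, the receptor for hepatocyte growth factor, 25.9, 30.8, 27.4, 27.5 and 28.7 FPKM. The values of AXL and FGFR1 overlapped, whereas every AXL value was above every MET value. ERBB2 had a mean of 8.02 ± 1.82 FPKM and ERBB3 of 1.66 ± 1.46 FPKM. Among 42 secreted growth factors, 23 were at or above 1 FPKM in all, 54.8% beside the same 45.9%. IGF2, a fetal growth factor, had 99.6, 128, 86.5, 102 and 110.1 FPKM. NRG1, the ligand of ERBB3 and ERBB4, had 59.5, 61.1, 46.7, 42.98 and 66.1 FPKM. GAS6, the ligand of AXL, had 30.4, 43.3, 41.5, 28.4 and 33.2 FPKM, and FGF5 33.1, 38.1, 31.0, 31.9 and 36.9 FPKM. The EGFR ligands TGFA, AREG and BTC had means under 0.1 FPKM and EREG was at 0 in all tumors. HGF, the ligand of MET, had a mean of 1.37 ± 0.654 FPKM.

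Of surface antigens studied as targets in mesothelioma, SDC1, a heparan sulfate proteoglycan, had 35.4, 42.2, 39.9, 46.3 and 41.9 FPKM. CD276, a checkpoint ligand also called B7-H3, had 22.5, 18.8, 20.4, 17.6 and 14.2 FPKM. FAP, a protease of activated fibroblasts, had 21.0, 28.8, 19.5, 15.4 and 15.5 FPKM. CD274, which encodes PD-L1, had 2.62, 4.51, 3.13, 4.76 and 1.18 FPKM. MUC16 was at 0 in all 5.

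Immediate early genes, the first to answer growth factors, were led by MYC at 178, 150.2, 156, 176 and 145 FPKM, rank 184. FOSL1, a partner of JUN in AP-1, had 39.1, 45.7, 34.2, 42.3 and 38.4 FPKM. EGR1 differed very little between tumors, at 17.6, 17.1, 17.2, 16.9 and 16.8 FPKM, while FOS had a mean of 2.80 ± 1.00 FPKM. All 20 cell cycle genes were at or above 1 FPKM in every tumor, beside 45.9% of all genes. MCM4, a subunit of the replicative helicase, led at 38.1, 45.7, 44.2, 46.7 and 27.8 FPKM, with CDK1, the mitotic kinase, at 23.6, 19.3, 31.0, 23.3 and 18.1 FPKM. The other helicase subunits were far lower than MCM4: MCM2, MCM3, MCM5, MCM6 and MCM7 had means of 3.17, 3.45, 5.56, 3.09 and 10.4 FPKM. MKI67, which encodes the proliferation antigen Ki-67, had 3.94, 4.38, 5.17, 4.51 and 5.56 FPKM. TOP2A, the topoisomerase of dividing cells, had 4.09, 5.74, 5.02, 13.8 and 5.41 FPKM, highest in animal 5. The summed cell cycle level was 171, 196, 193, 209 and 199 FPKM, with animal 13 lowest and animal 5 highest.

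Glycolytic enzymes were high, 16 of 17 at or above 1 FPKM in all, 94.1% beside 45.9% of all genes. LDHA, which turns pyruvate to lactate, had 561, 513, 519.6, 512 and 568 FPKM. ALDOA and PKM had means of 457 ± 65.4 and 283 ± 24.0 FPKM, and HK2 of 1.75 ± 0.512 FPKM. Hypoxia response genes had a median of 4.48 FPKM. LOX, which crosslinks collagen, had 28.9, 31.5, 24.6, 26.0 and 34.9 FPKM and SLC2A1, the glucose transporter GLUT1, 19.6, 26.4, 19.6, 15.8 and 15.5 FPKM. CA9, a carbonic anhydrase widely used as a marker of hypoxia, was listed at 0 in every tumor. Interferon response genes were led by IFI6 at 43.9, 68.1, 50.2, 44.1 and 42.2 FPKM. In antigen presentation, B2M, the light chain of class I molecules, had 350.5, 356, 337, 273 and 356 FPKM and was lowest in animal 5. HLA-B had 144, 179, 239, 104 and 190.0 FPKM, highest in animal 26 and lowest in animal 5. HLA genes share reads with each other and map by allele, so this level is uncertain. HLA-DRA, a class II chain, was at 0 in all.

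Metallothioneins and cancer-testis antigens were expressed through a few members. At or above 1 FPKM in all 5 tumors were 2 of 11 and 1 of 20. Below the 45.9% of all genes were also T-box factors (3 of 15) and HOX genes (15 of 39). S100 proteins (8 of 19), GATA factors (3 of 6), KLF factors (9 of 18) and pregnancy-specific glycoproteins (5 of 10) were near it. Their counts do not set these families apart from all genes. Integrins (15 of 26) and annexins (9 of 12) were above it. MT2A, a metallothionein that binds zinc and copper, had 189.9, 187, 195, 168 and 192 FPKM and MT1X 13.3, 20.1, 24.0, 14.2 and 16.5 FPKM. At 0 in all tumors were 7 of 11 metallothioneins, where the share over all genes was 22.2%. These genes are near-identical copies, and the counting could have split their reads. Among cancer-testis antigens, 18 of 20 were at 0 in all 5, beside the same 22.2%, and MAGEB2 had 5.85, 4.95, 6.93, 5.69 and 7.09 FPKM. The 10 pregnancy-specific glycoproteins, placental members of the CEACAM family, were all above 0 in at least 1 tumor. PSG5 had 148, 149, 133, 103 and 150.4 FPKM and PSG4 102, 125, 115, 113 and 116 FPKM, far above PSG1 at 4.09 ± 0.846 FPKM, though these copies too are alike. Of 26 integrins, ITGA3 led at 319, 390.3, 325, 329 and 281 FPKM and ITGB4, of hemidesmosomes, followed at 246, 207, 166, 135 and 169 FPKM. The calcium-binding S100A11 had 609, 619, 611, 546 and 562 FPKM, and the membrane-binding ANXA2 308, 379.6, 339, 299.7 and 335 FPKM. Among lineage factors, KLF5 had 39.4, 36.0, 39.0, 39.1 and 27.0 FPKM and KLF7 39.6, 43.2, 24.9, 34.3 and 31.6 FPKM. GATA3 had 19.7, 22.1, 19.2, 21.6 and 19.7 FPKM. HOXC4 was the highest of 39 HOX genes at 10.9, 10.4, 8.28, 11.1 and 9.07 FPKM, and 3 other genes of the HOXC cluster, HOXC9, HOXC8 and HOXC6, were among the 5 highest. TBX18, a T-box factor of the epicardium, led its family at 4.61 ± 1.37 FPKM.

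Many genes listed at 0 in all 5 tumors belonged to families used in other tissues. Of protein-coding genes, 4012 of 19717 (20.3%) were at 0 in all. Of 398 olfactory receptors 371 (93.2%) were, as were 91 of 94 keratin-associated proteins of hair (96.8%), 43 of 43 defensins, which are antimicrobial peptides, 20 of 24 bitter taste receptors and 16 of 17 type I interferons. OR2W3 was the only olfactory receptor at or above 1 FPKM in every tumor, with 1.33, 3.07, 2.14, 3.33 and 1.76 FPKM. Segments of antigen receptors were nearly all at 0, including 141 of 144 immunoglobulin variable segments and 100 of 106 T-cell receptor variable segments. Silent protein-coding genes lay side by side in 117 runs of 5 or more neighbours, which held 1157 of 3961 silent genes placed outside the Y chromosome. The longest run was 61 genes at chr11:48216792-56989867 (GRCh38), from OR4B1 to OR5AK2, of which 56 were olfactory receptors. On one side it was bounded by PTPRJ at 2.21 FPKM. The next, 49 genes at chr17:40861303-41505613, held 34 keratin-associated proteins and 15 keratins. A run of 35 genes at chr21:30165564-31038476 held 33 keratin-associated proteins. One of 31 genes at chr1:12644547-13617957 held 22 PRAMEF genes and ended with PDPN, the mesothelial marker named above. The last of the 5, 29 genes long from DEFB1 to USP17L3, held 19 defensins. A 0 in the table is a listed value, since values too small for any whole fragment also occur in it, in 382 genes. Housekeeping genes were not among the zeros: none of 25 was listed at 0 in all 5 tumors.

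Spread between the 5 tumors fell with level. The median CV of nuclear genes was 27.2% at a mean of 1 to 5 FPKM (4739 genes), 19.3% at 5 to 20 FPKM (3970 genes), 13.5% at 20 to 100 FPKM (1494 genes) and 9.42% above that (311 genes). Of 5775 nuclear genes with a mean of 5 FPKM or more, 38 had an SD of log2(FPKM + 1) of 1 or more, which is 0.658%. Without the tumor of animal 13 this count was 39, and over the 5 ways to leave out 1 tumor it was 37 to 48. The 10 genes with the smallest CV among those of 50 FPKM or more were EIF1, CITED2, RPL30, HSPB1, ATP5J2, PSMB7, RPS15, PCBP1, RPS10 and DDX5. EIF1, an initiation factor, had 93.2, 95.1, 90.2, 92.2 and 94.6 FPKM, a CV of 2.12%. CITED2, a coregulator that binds CBP and p300, had 185, 182, 178, 187 and 177 FPKM. HSPB1, a small heat shock protein, had 223, 207, 215, 210.3 and 214 FPKM. These 10 depended on the choice of tumors, since between 1 and 5 of them were again among the 10 when 1 tumor was left out.

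The largest spread was in OSBPL1A, an oxysterol-binding protein of endosomes, with 1789, 7.84, 1119, 5.31 and 5.29 FPKM. Animals 13 and 26 gave values over 1000 FPKM and the other 3 tumors values under 8 FPKM. LUZP6, whose reading frame lies within another gene's message, had 23.3 FPKM in animal 13, 22.9 FPKM in animal 5 and 0 or near 0 in the others. PDCD11, a factor of ribosomal RNA processing, had 105, 1.87, 2.36, 1.82 and 3.71 FPKM. C7orf49, a regulator of DNA end joining, had 77.3, 3.21, 2.54, 3.40 and 38.1 FPKM. GRIK4, a glutamate receptor subunit, had 1.01, 0.0831, 0.234, 28.8 and 0.481 FPKM, high in animal 5 alone. HMGN4, a nucleosome-binding protein, was high only in animal 20, with 4.66, 53.9, 4.06, 3.08 and 4.53 FPKM, and BCAS3 only in animal 5, with 3.83, 5.49, 7.54, 53.0 and 3.88 FPKM. MDC1, a DNA damage adaptor, had 54.3, 10.4, 49.8, 1.48 and 12.4 FPKM. CDK10 had 137, 73.4, 40.9, 5.15 and 42.4 FPKM. IMMP1L, a mitochondrial inner membrane peptidase, had 2.83, 9.04, 32.0, 46.1 and 77.9 FPKM. The other 10 were CH17-270A2.2, ATP2A1, TTN, BARD1, CC2D1B, IGSF10, VPS9D1, RWDD4, TMF1 and CEP152, with SDs of 1.44 to 1.93 on the log2 scale. Between 15 and 17 of these 20 were again among the 20 when 1 tumor was left out. The highest value of a gene among these 20 was in animal 13 for 9, in animal 5 for 6, in animals 20 and 8 for 2 each and in animal 26 for 1.

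Outside the rule, most of these 20 genes, but not all, had a short annotated transcript. In GENCODE 29, 14 of the 20 (70.0%) had a transcript under 200 nt, beside 3.95% of the 5774 nuclear genes of that level with a length, and the median length of the shortest transcript was 176 nt beside 443 nt. PDCD11 and TTN were among the exceptions, with shortest transcripts of 410 and 519 nt. The longest transcripts did not set the 20 genes apart in that way, with medians of 4375.5 and 3745 nt. Of the 25 highest nuclear genes, 3 (12.0%) also had a transcript under 200 nt. They were ATP5J2 (84 nt), RPL38 (169 nt) and NMT1 (183 nt). The shortest annotated transcript of OSBPL1A, OSBPL1A-217, is shown because it is shorter than a usual sequencing fragment. It is 84 nt of coding sequence in 2 exons on the minus strand of chromosome 18, at 24196125-24196202 and 24195960-24195965 in GRCh38, printed from the start of the first exon.
OSBPL1A-217: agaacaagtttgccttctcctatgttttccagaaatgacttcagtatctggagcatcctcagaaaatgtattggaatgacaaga
FPKM divides by length, and which transcript lengths were used is not given in the sources used here. Whether reads assigned to such a transcript made the values of OSBPL1A, ATP5J2, RPL38 or NMT1 was not tested.

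**Figure D5:**
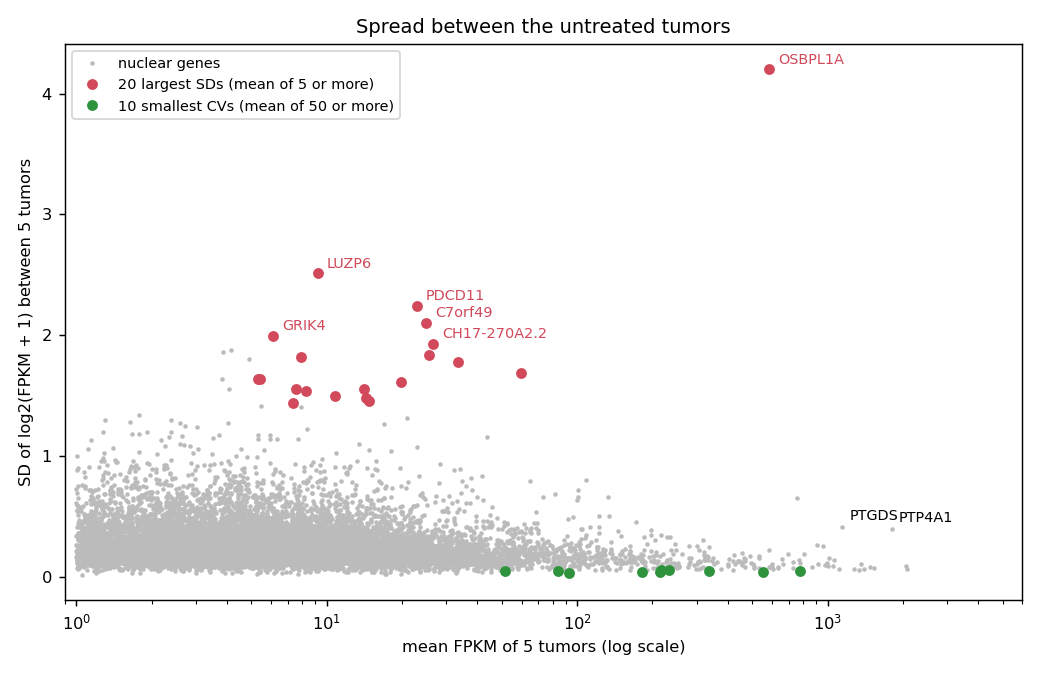
SD of log2(FPKM + 1) between the 5 untreated tumors against mean FPKM (log scale) for nuclear genes of 1 FPKM or more, where each point is a gene, red points are the 20 genes with the largest SD among those of mean 5 or more and green points the 10 with the smallest CV among those of mean 50 or more. OSBPL1A stands alone at an SD of 4.20, and only 38 genes of mean 5 or more reach an SD of 1.

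A second set, highest in the same tumor, was made of skeletal muscle genes, chosen in part after their values were seen. TTN, the giant elastic protein of the sarcomere, had 20.9, 2.18, 0, 1.24 and 2.40 FPKM. ATP2A1, the calcium pump of fast muscle, had 28.1, 1.65, 0.569, 8.40 and 0.711 FPKM. ACTA1, skeletal actin, had 21.8, 5.54, 1.51, 4.88 and 4.85 FPKM, and CKM, muscle creatine kinase, 7.36, 1.22, 0, 0.761 and 0.256 FPKM. MYL1 had 8.23, 1.99, 0, 0.821 and 0.954 FPKM, TNNT3 8.21, 0.824, 0.500, 1.00 and 0.758 FPKM and MB, myoglobin, 2.84, 0, 0, 0 and 1.16 FPKM. MYH2, a fast myosin, had 1.90, 0.128, 0.0101, 0.163 and 0.297 FPKM. The order of the other tumors differed between genes, but all 8 were highest in the tumor of animal 13. RPL3L, the muscle ribosomal protein above, was detected in that tumor alone. The sum of the 6 that belong to the list of muscle markers was 50.3, 9.70, 2.02, 7.62 and 8.27 FPKM. ACTA2 of smooth muscle, at 18.6 FPKM in that tumor, was at 18.0 FPKM in that of animal 5. The part of skeletal muscle next to the graft in these values was not tested.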

How the data were processed

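RNA from the 5 T0 tumors had been made into libraries with a KAPA kit, enriched by hybridization to capture probes and sequenced in pairs, so a level also reflects how well a gene was captured. The labels also name a NuGEN system for a second-strand step, and how it went with the KAPA kits is not stated. Per the submitters' processing notes STAR and the build GRCh38 were used, and the tool that made the values is not given in the sources used here. The authors deposited 1 table of 20555 rows with a value per gene and tumor, without naming its unit. The deposited values were read as FPKM because they are not whole, do not sum to 1000000 in each tumor, and FPKM is the unit named for the study's cell lines. Depth is unknown. The 13 columns of the other groups were not used.

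Rows of 1 identifier were summed, giving 20257 genes (266 on more than 1 row). The 1 blank cell was read as 0. Of these genes 20218 had their identifier in GENCODE 29 and 15709 the same start and end. Starts were written 1-based. For each gene the mean, SD, CV and SD of log2(FPKM + 1) over tumors were computed (Python 3.11, numpy and pandas), with no test, since no groups were compared. The members and gene lists were chosen with earlier results of these data known. Genes were named from the 5 highest and the lowest or defining members of each list, the 5 highest of each family, the 13 mitochondrially encoded genes, the 25 highest nuclear genes, the 20 with the largest SD of log2 at a mean of at least 5 FPKM, the 10 with the smallest CV at a mean of at least 50 FPKM and the 5 longest runs of neighbours at 0. Not every gene of these sets is named. Genes named outside that rule (the 9p21 and LATS2 neighbours, and RPL3L and part of the muscle genes) were chosen after their values were seen. The summary code was tested on simulated data. Alternatives were other thresholds, scalings, pseudocounts, row handling and leaving out each tumor.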

Additional observations from a re-analysis of the deposited data

Results flagged for a closer look

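Of 275 sets of 5 values examined, 16 (5.82%) had 1 tumor whose gap to its nearest neighbour was more than 0.71 of the whole range. Chance gives about 1 in 20 for values not chosen for their spread. It does not apply to the 20 genes chosen for the largest SD, which gave 7 of the 16 (PDCD11, TTN, ATP2A1, HMGN4, VPS9D1, GRIK4 and BCAS3), and the other 255 sets gave 9 (3.53%). The ratio of gap to range follows each item.

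High in the tumor of animal 13 were PDCD11 (104.8 FPKM against at most 3.71, ratio 0.982), TTN (20.9 against at most 2.40, 0.885), ACTA1 (21.8 against at most 5.54, 0.801) and ATP2A1 (28.1 against at most 8.40, 0.716). TTN, ACTA1 and ATP2A1 are the muscle genes described above.

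In the tumor of animal 20, HMGN4 was high (53.9 FPKM against at most 4.66, 0.969), as were COL3A1 (202 against at most 161, 0.844) and VPS9D1 (26.1 against at most 8.09, 0.7101). EEF2 was low there (425 FPKM against at least 553, 0.935), as was the share of the nuclear sum held by the 100 highest genes (29.4% against at least 30.1%, 0.788).

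GRIK4 (28.8 FPKM against at most 1.01, 0.968) and BCAS3 (53.0 against at most 7.54, 0.925) were high in the tumor of animal 5. B2M (273 FPKM against at least 337, 0.770) and CAV1 (864 against at least 1001, 0.755) were low in it.

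MUC1 (45.4 FPKM against at most 18.8, 0.723) was high in animal 26 and with it the sum of epithelial markers, of which it is a part (65.2 against at most 35.9, 0.766). KLF5 was low in animal 8 (27.0 FPKM against at least 36.0, 0.729).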

How the results depend on the processing

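Of 59 alternative values, 54 stayed within the limit, which was 1.5 times for counts and for the median CV and 1 SD between tumors for the mitochondrial share, and 5 moved. At a threshold of 5 FPKM in place of 1, 4677 genes passed in all tumors. Without MT-ATP8 the mitochondrially encoded genes held 61.3% of the FPKM sum, and weighted by transcript length 34.1%, in place of 81.5%. The count of genes with an SD of log2 of 1 or more, 38, became 59 with a pseudocount of 0.1 and 78 with no filter on the mean, since low genes then enter.

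The 5 moves were all among alternatives other than leaving out a tumor. Leaving out each tumor in turn gave 35 of the 59 values and moved none of these results beyond the limit. Each such value kept most of the tumors, so a large move was unlikely. The count of genes at or above 1 FPKM was then 9390 to 9476, that of genes at 0 was 4649 to 4702, the mitochondrial share 80.97% to 81.92%, the median CV 19.5% to 20.5%, and 18 or 19 of 31 lists had a median above that of all nuclear genes. Of the 25 highest nuclear genes 24 or 25 were shared. Summing rows was chosen after seeing the data, and with rows as deposited the counts were 9326 at or above 1 FPKM and 4628 at 0. The 10 most even genes shared 2 members with those found after rescaling to the nuclear sum, while the 20 most variable genes were the same 20 under that rescaling and under quantile normalization, and shared 15 to 17 when a tumor was left out. No paired analysis was possible because the tumors were of 1 group and their replicate numbers follow accession order.

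Probe capture, unknown depth, unknown transcript lengths and the unstated handling of mouse reads limit what a level or a 0 can show.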
